A study of Rattus norvegicus with 4 samples.

Results

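Vascular endothelial cells line blood vessels, and 10 genes that mark them were followed in rat ocular tissue. The genes were picked by symbol: Plvap, Flt1, Kdr, Tek, Tie1, Pecam1, Cdh5, Vwf, Eng and Esam. Values were given for 8 of them, out of 14485 gene names in all. Kdr and Eng had no row and are not analysed here. RNA sequencing was done on eye and on retina of rats of the pigmented strain Long Evans, labelled wild type, with no treatment or age given. Each library came from the pooled RNA of 5 rats. Although 2 technical replicates per tissue are labelled, 1 column of values per tissue was analysed, and it may or may not join them. That column is called the library of the tissue below. With 1 library per tissue there is no replicate error, so no p-value is given.

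In adult vessels the endothelium grows and stays quiet under a small set of receptors. Vascular endothelial growth factors act through the receptor kinases Flt1 and Kdr, and angiopoietins act through Tek, with Tie1 as its partner. Endothelial cells hold to each other through Cdh5 (VE-cadherin), Pecam1 and Esam. Vessels inside the retina form a tight barrier, whereas those of the choroid and of the ciliary processes are fenestrated, and Plvap forms the diaphragms of such openings. The libraries are of bulk tissue, so fewer endothelial cells and less RNA per cell cannot be told apart.

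Reference promoter sequences are shown for the 3 genes with values that the RefSeq promoter table holds, since their folds span the range from the top of the set to near its bottom. They are read from RefSeq on build GRCr8, 250 bases before and 50 after each start, on the strand of the gene. They lie at chr16:18231230-18231529 on the minus strand for Plvap, chr5:137304932-137305231 on the minus strand for Tie1 and chr12:12333180-12333479 on the plus strand for Flt1. Capitals mark exact matches, on either strand, to the short motifs described after them.
Plvap: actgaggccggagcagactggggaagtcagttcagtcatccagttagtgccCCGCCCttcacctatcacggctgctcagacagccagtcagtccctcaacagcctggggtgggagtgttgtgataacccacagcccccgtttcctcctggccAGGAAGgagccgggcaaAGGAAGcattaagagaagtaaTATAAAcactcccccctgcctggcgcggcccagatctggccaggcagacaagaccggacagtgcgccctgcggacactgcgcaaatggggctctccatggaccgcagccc
Tie1: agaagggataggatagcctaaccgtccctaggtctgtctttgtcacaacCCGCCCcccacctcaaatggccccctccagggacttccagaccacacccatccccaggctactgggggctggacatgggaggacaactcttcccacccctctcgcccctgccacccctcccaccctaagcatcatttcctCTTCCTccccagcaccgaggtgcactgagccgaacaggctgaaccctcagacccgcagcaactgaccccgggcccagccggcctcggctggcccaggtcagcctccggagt
Flt1: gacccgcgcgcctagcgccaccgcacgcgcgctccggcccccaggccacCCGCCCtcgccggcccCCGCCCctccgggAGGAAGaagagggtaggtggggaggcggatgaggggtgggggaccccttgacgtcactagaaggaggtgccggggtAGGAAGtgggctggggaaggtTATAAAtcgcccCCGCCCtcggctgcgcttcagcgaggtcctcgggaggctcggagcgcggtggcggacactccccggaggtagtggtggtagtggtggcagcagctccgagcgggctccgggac

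The letters AGGAAG, a core sequence bound by ETS factors such as Erg, stood at 2 places in the Plvap promoter, at 1 place in that of Tie1 and at 2 places in that of Flt1, and 34.5% of all 33469 promoters in the table held it. The letters GGGCGG, a box bound by Sp1 and Klf factors, were found at 1 place in Plvap, at 1 place in Tie1 and at 3 places in Flt1, against 33.1% of all promoters with a match. The letters TATAAA, searched for as a TATA element, stood 60 bases before the start in Plvap and 75 bases before it in Flt1. They were not in the Tie1 window, and 14.2% of all promoters held them. The letters AGATAA, bound by blood and vessel factors such as Gata2, were in none of the 3 windows, and 11.6% of all promoters held them. No 2 of the matches overlapped. The GC content was 61.0% for Plvap, 64.3% for Tie1 and 72.7% for Flt1, beside a median of 51.7% over all promoters. A match is a description of these letters and does not show that a factor binds.

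The library totals behind the values were inferred from them as 28071917 reads for eye and 51944762 for retina. For eye 100 of 378 genes searched agreed on the total, beside 46 on the next best. For retina 97 of 416 agreed, beside 56. The values are taken as RPKM (reads per length of gene model and per total), a unit inferred from them. Genes were tested where eye or retina reached a value of 1, which left 13259, and were called where the values, each with 0.1 added, differed by 2-fold or more. Lens genes, which mark the eye outside the retina, were higher in eye in 16 of 17 cases, and rod photoreceptor genes were lower in eye in 8 of 13 cases and higher in 0. The other 5 rod genes were not called, and 1 of 13 was lower when the totals left out lens genes. One description, of retina mRNA, stands on all 4 samples, so the tissue labels and titles were used to tell eye from retina.

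The endothelial genes were on the whole more abundant in the eye library. Of the 8 genes, 6 were at least 2-fold higher in eye (Plvap, Cdh5, Tie1, Tek, Vwf and Pecam1), 0 were lower and 2 were not called (Flt1 and Esam). Of all tested genes, 17.8% were called higher and 7.95% lower. The median log2 fold of the 8 genes was 1.73, a 3.32-fold difference, beside -0.01 for all tested genes. All 8 passed the filter on low values, and the retina library alone would have kept all of them, since the lowest retina value was 1.22. At a fold of 4, 2 genes (Plvap and Cdh5) were called higher, beside 9.07% of all tested genes. With equal summed values in both libraries, 5 of the 8 were higher and 0 lower. Of tested genes, 11.5% were called higher and 32.2% lower with that scaling. Lens genes made up 35.0% of the summed values in eye and 0.587% in retina, so that scaling lowers all other eye values along with them.

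**Figure D1:**
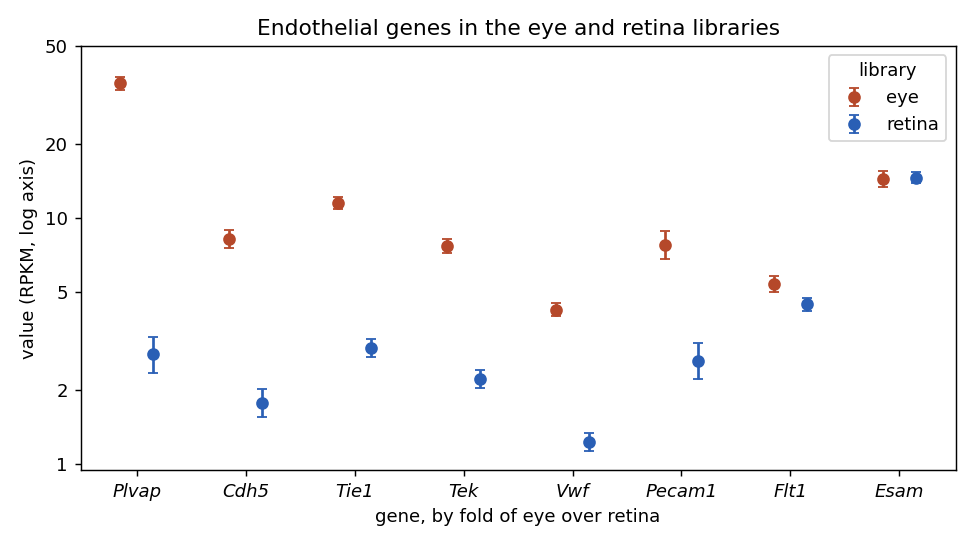
Value of each endothelial gene in the eye library (left point of each pair) and the retina library (right point), in RPKM on a log axis, with exact 95% Poisson intervals of the recovered reads. Plvap stood at 35.3 in eye and 2.79 in retina, whereas Esam stood at 14.4 in eye and 14.6 in retina.

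Among the receptors, Tek and Tie1 differed more between libraries than Flt1 did. The fold of Tek was 2.86 times that of Flt1 (interval 2.47 to 3.30) and the fold of Tie1 3.18 times (interval 2.77 to 3.65). Tek (Tie2), the receptor kinase of the angiopoietins, had 7.68 RPKM in eye and 2.21 RPKM in retina. That is 3.47-fold higher in eye, with an exact 95% interval from 3.12 to 3.87. Tie1, the related kinase that pairs with Tek, had 11.4 RPKM in eye and 2.96 RPKM in retina, 3.87-fold higher (interval 3.50 to 4.27). The folds of Tie1 and Tek could not be separated, as their ratio of 1.11 had an interval from 0.962 to 1.29. Intervals cover counting error only and leave out that several reads may stem from 1 molecule. They compare these libraries, not the tissues.

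Flt1 (VEGF receptor 1), which binds VEGF-A tightly and limits its action on Kdr, had 5.40 RPKM in eye and 4.45 RPKM in retina. The fold of 1.22 (interval 1.10 to 1.34) lay short of the threshold, and with equal summed values in both libraries its sign turned to a log2 fold of -0.35. Tek was thus above Flt1 in the eye library and below it in the retina library. The level of Flt1 was 0.704 times that of Tek in eye and 2.01 times in retina.

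Of the junction genes, Cdh5 and Pecam1 were called higher in eye and Esam was not called. Cdh5 (VE-cadherin), the cadherin of endothelial adherens junctions, had 8.18 RPKM in eye and 1.77 RPKM in retina, 4.62-fold higher (interval 3.94 to 5.42). Pecam1 (CD31), an adhesion molecule also carried by platelets and leukocytes, had 7.77 RPKM in eye and 2.62 RPKM in retina. Its fold of 2.96 (interval 2.38 to 3.69) was the lowest of the 6 called. It was not called with equal summed values (log2 fold 0.91). Esam, an adhesion molecule of endothelial tight junctions, had 14.4 RPKM in eye and 14.6 RPKM in retina. Its fold of 0.987 had an interval from 0.901 to 1.08, which includes equal values and lies below the 2-fold threshold. With totals without lens genes its log2 fold was 0.17, and with equal summed values it was -0.65. Esam was 1.76 times as abundant as Cdh5 in the eye library and 8.23 times in the retina library.

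Plvap and Vwf stand for specialised tasks of the vessel wall. Plvap, the diaphragm protein of fenestrae and caveolae, had 35.3 RPKM in eye and 2.79 RPKM in retina, 12.6-fold higher (interval 10.6 to 15.2). Only 4.11% of tested genes had a higher log2 fold. Pigment epithelium genes were higher in eye in 9 of 11 cases, lower in 0 and not called in 2. Their sums were 2396 RPKM in eye and 566 RPKM in retina. The pigment gene Dct had 342 RPKM in eye and 34.8 RPKM in retina, 9.81-fold higher. How much RNA of pigmented tissue or choroid the retina library held, and its part in the retina value of Plvap, was not tested. Vwf (von Willebrand factor), the clotting protein stored in endothelial granules and in platelets, had 4.24 RPKM in eye and 1.22 RPKM in retina, 3.46-fold higher (interval 3.11 to 3.85). The fold of Vwf was close to that of Tek, with a ratio of 1.00 between them (interval 0.861 to 1.17).

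**Figure D2:**
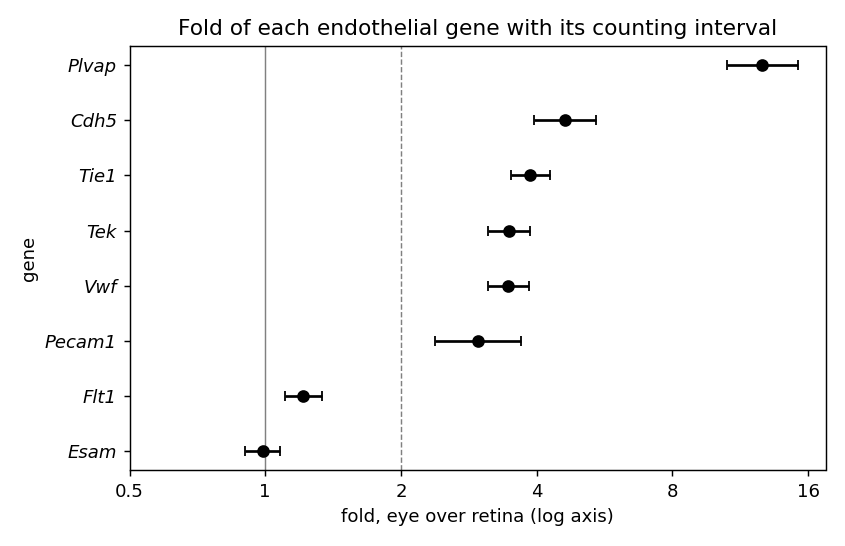
Fold of each endothelial gene, eye over retina, on a log axis with exact 95% Clopper-Pearson intervals; the solid line marks equal values and the dashed line the 2-fold threshold. Plvap lies apart at 12.6, 5 genes lie between 2.96 and 4.62, and Flt1 and Esam lie at 1.22 and 0.987.

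The 8 folds also differed from each other. The ratio of the folds of a pair of genes does not depend on how the libraries are scaled. Of 28 such pairs, 22 had an exact conditional interval of the ratio that lay above 1 and 6 had one that included 1. Each pair was ordered by its observed folds, so no ratio could lie below 1. The intervals were not corrected for the number of pairs. The fold of Plvap was 2.74 times that of Cdh5 (interval 2.15 to 3.49), the next in order, and 12.8 times that of Esam (interval 10.5 to 15.7). All 6 pairs that could not be separated lay within the group of Cdh5, Tie1, Tek, Vwf and Pecam1. Within it, Cdh5 could be set above Pecam1 (ratio 1.56, interval 1.19 to 2.05), above Tek (1.33, interval 1.10 to 1.62) and above Vwf (1.33, interval 1.10 to 1.62). For Tie1 over Pecam1 the lower limit was close to 1 (ratio 1.31, interval 1.02 to 1.66). Flt1 lay above Esam by a ratio of 1.23 (interval 1.08 to 1.41), and below Pecam1, which had 2.44 times its fold (interval 1.92 to 3.10).

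The order of the genes by level also differed between the libraries. In eye, Plvap was the most abundant of the 8, followed by Esam, Tie1, Cdh5, Pecam1, Tek, Flt1 and Vwf. The intervals of Cdh5 and Pecam1, and of Pecam1 and Tek, overlapped, while the other neighbours were apart. In retina, Esam came first, followed by Flt1, Tie1, Plvap, Pecam1, Tek, Cdh5 and Vwf. There the intervals of Tie1, Plvap, Pecam1 and Tek overlapped from neighbour to neighbour. Esam, in first place, had 14.6 RPKM in retina and Flt1, in second place, 4.45 RPKM.

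Plvap therefore made up 37.4% of the summed value of the 8 genes in eye and 8.56% in retina. Esam made up 15.3% in eye and 44.7% in retina, and Flt1 5.73% in eye and 13.6% in retina. The sum was 94.4 RPKM in eye and 32.6 RPKM in retina, a 2.89-fold difference, and without Plvap it was 59.1 RPKM in eye and 29.8 RPKM in retina, a 1.98-fold difference. Against all tested genes, Plvap stood at percentile 85.0 of the eye values and 22.5 of the retina values. Esam stood at percentile 61.8 in eye and 62.2 in retina. Cdh5 was at percentile 43.3 in eye and 15.7 in retina, and Vwf at 25.1 in eye and 11.4 in retina. Of the 8 genes, Esam alone was above the median of the tested genes in retina.

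**Figure D3:**
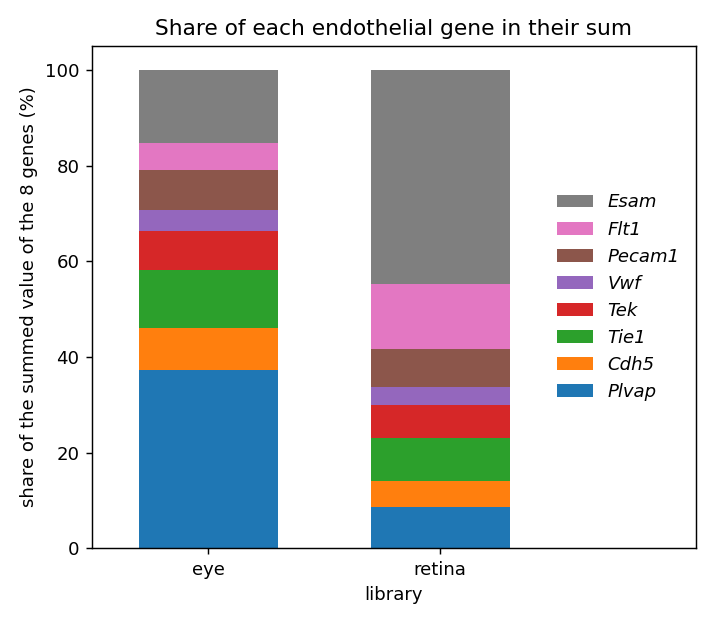
Share of each endothelial gene in the summed value of the 8 genes, in percent, for the eye library (left bar) and the retina library (right bar). Plvap fills 37.4% of the eye bar and 8.56% of the retina bar, and Esam fills 15.3% of the eye bar and 44.7% of the retina bar.

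Related genes are described in lists. A gene at 1 RPKM or more in eye alone had to have its higher value there, so the number that passed the minimum through eye alone is given for each list, and counts over all tested genes of a list are no support for the 8 genes. Among all genes at 1 RPKM or more in both libraries, 1279 of 11787 were higher in eye and 928 lower. Counts with equal summed values stand against the shares of 11.5% higher and 32.2% lower given for all genes.

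The ligands of these receptors did not all lie to one side. Among 6 tested genes of the VEGF ligand and co-receptor list, 4 were higher in eye (Vegfc, Pgf, Nrp1 and Nrp2), 0 lower and 2 not called. Vegfc passed the minimum through eye alone. Vegfa, the main growth factor for Kdr and Flt1, had 53.3 RPKM in eye and 84.7 RPKM in retina. Its ratio of 1.59 toward retina lay short of the threshold, and with equal summed values it was called lower (log2 fold -1.31). Vegfb, which binds Flt1, had 20.7 RPKM in eye and 12.3 RPKM in retina and was not called. The level of Vegfa was 9.87 times that of Flt1 in eye and 19.1 times in retina. Pgf, another ligand of Flt1, was at 5.97 in eye and 1.86 in retina, 3.21-fold higher (interval 2.62 to 3.95). Vegfc, a growth factor of lymphatic vessels, was at 3.43 in eye and 0.823 in retina, 4.17-fold higher (interval 3.11 to 5.65). Its receptor gene Flt4 was below the minimum, at 0.695 in eye and 0.190 in retina. The co-receptors Nrp1 (2.70-fold) and Nrp2 (2.30-fold) were higher in eye and were not called with equal summed values, and Nrp2 was also not called with 1 added to each value (log2 fold 0.96). With equal summed values 2 of the 6 were higher and 1 lower.

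In the angiopoietin pathway 4 of 7 genes were higher in eye (Angpt1, Ptprb, Angptl2 and Svep1), 0 were lower and 3 were not called. Of these 7, 4 passed the minimum through eye alone, among them Angpt1, Ptprb and Svep1, and of the 3 genes at the minimum in both libraries 1 (Angptl2) was higher. Angpt1, the ligand that activates Tek, had 4.92 RPKM in eye and 0.438 RPKM in retina, 11.2-fold higher (interval 8.11 to 15.9). Angpt2, which opposes Angpt1 in many settings, had 7.39 RPKM in eye and 7.10 RPKM in retina, a fold of 1.04 (interval 0.928 to 1.17). Angpt1 was thus at 0.666 times the level of Angpt2 in eye and at 0.0617 times in retina. Ptprb (VE-PTP), the phosphatase that acts on Tek and Cdh5, was 3.02-fold higher in eye (interval 1.98 to 4.65). With equal summed values 1 gene, Angpt1, was still called, and with 1 added 2 were (Angpt1 and Angptl2).

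For the pathway in which Eng acts as co-receptor, 5 of 16 genes were higher in eye (Acvrl1, Tgfbr2, Tgfbr3, Tgfb3 and Id2), 0 lower and 11 not called. All 16 reached the minimum in both libraries, with a median log2 fold of 0.70. Acvrl1 (ALK1), its partner receptor in endothelium, had 7.53 RPKM in eye and 2.41 RPKM in retina, 3.13-fold higher (interval 2.54 to 3.87) and was not called with equal summed values (log2 fold 0.98). Bmpr2, the type II receptor, had 15.8 RPKM in eye and 16.1 RPKM in retina, and Id1, a target gene of the pathway, had 44.5 RPKM in eye and 22.6 RPKM in retina. Neither was called, and with equal summed values 3 of the 16 were higher and 0 lower.

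Of 17 genes of cadherin partners and junction adhesion, 8 were higher in eye, 0 lower and 9 not called. Of these, 4 passed the minimum through eye alone, and of the 13 at the minimum in both libraries 5 were higher, with a median log2 fold of 0.73. The catenin gene Ctnnb1, which links cadherins to the cytoskeleton in most cells, was at 141 in eye and 158 in retina. Emcn (endomucin), a surface protein of venous and capillary endothelium, was 9.65-fold higher in eye (interval 7.97 to 11.8), the highest fold of that list. Jam2, another adhesion gene of tight junctions, was not called, at 23.0 in eye and 22.4 in retina, and its sign turned with equal summed values (log2 fold -0.60). With that scaling 6 of the 17 were higher and 0 lower.

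The share of barrier vessel genes called higher was near that of all genes. Of 16 genes on that list, 3 were higher in eye (Ocln, Itm2a and the carrier gene Slco1a4, found under the older symbol Slco1a2), 0 lower and 13 not called. That is 18.8% higher, beside 17.8% of all tested genes, and 81.2% not called, beside 74.2% of all tested genes, with a median log2 fold of 0.44. Many of them are also expressed outside vessels. Cldn5, the main claudin of these vessels, had 34.6 RPKM in eye and 30.5 RPKM in retina. Its fold of 1.13 (interval 1.06 to 1.21) was not called, and its sign turned with equal summed values (log2 fold -0.46). Plvap was at 1.02 times the level of Cldn5 in eye and at 0.0915 times in retina. Slc2a1 (GLUT1), the glucose carrier of barrier endothelium and of other retinal cells, was at 185 in eye and 137 in retina. After scaling to equal summed values 1 gene of the list was higher and 2 were lower. The norrin pathway, which maintains retinal vessels, had 2 of 8 genes higher (Tspan12 and Sox17), 0 lower and 6 not called. Its ligand gene Ndp had 7.98 RPKM in eye and 9.59 RPKM in retina, and its receptor gene Fzd4 had 5.02 RPKM in eye and 2.85 RPKM in retina. After scaling to equal summed values 0 genes were higher and 1 (Axin2) was lower.

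The list nearest to Plvap in function was that of caveolae and fenestration, where 8 of 9 tested genes were higher in eye and 0 lower, with a median log2 fold of 1.98. Of the 9, 3 passed the minimum through eye alone (Esm1, Car4 and Igfbp3). Of the other 6 genes 5 were higher, with a median log2 fold of 2.00. With equal summed values 8 of the 9 were higher, and 6 were higher with 1 added. Which cells gave rise to these values was not tested, so the list is no measure of vessels alone. Summed markers of stroma and of pericytes and smooth muscle, given further below, were higher in eye too. Not every gene of the list codes for a part of caveolae or fenestrae. Igfbp3, a secreted binding protein of insulin-like growth factors, was at 13.4 in eye and 0.706 in retina, 19.0-fold higher (interval 15.2 to 24.0). Prkcdbp had 59.3 RPKM in eye and 17.9 RPKM in retina, and Ptrf had 15.2 RPKM in eye and 3.79 RPKM in retina, both coat proteins (cavins) of caveolae. Cav1, the caveolin itself, was the gene not called, at 57.1 in eye and 46.0 in retina.

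In the list of haemostasis and vascular tone, 6 of 11 genes were higher in eye, 0 lower and 5 not called. Of the 10 that reached the minimum in both libraries 5 were higher, with a median log2 fold of 0.81. Thbd (thrombomodulin), an anticoagulant receptor of endothelium, was 2.82-fold higher (interval 2.59 to 3.06), while Nos3, the endothelial nitric oxide synthase, was at 2.14 in eye and 1.79 in retina. F8, the clotting factor carried by Vwf in plasma, had 2.04 RPKM in eye and 4.17 RPKM in retina, a ratio of 2.04 toward retina that was not called once 0.1 was added. With equal summed values 3 of the 11 were higher and 2 lower (F8 and Ece1).

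Of 18 transcription factors of endothelium, 11 were higher in eye, 0 lower and 7 not called. Of these 11, 6 passed the minimum through eye alone (Erg, Sox7, Lyl1, Gata2, Klf4 and Foxc1). Of the 12 at the minimum in both libraries 5 were higher, with a median log2 fold of 0.45. Erg, an ETS factor that maintains endothelial identity, was at 4.48 in eye and 0.768 in retina, 5.83-fold higher (interval 4.46 to 7.72). Klf4, also a factor of surface epithelia, had the highest fold of the list at 32.7 (interval 27.1 to 39.8). Hif1a, the oxygen-sensitive activator of Vegfa, was at 104 in eye and 105 in retina. After scaling to equal summed values 6 of the 18 were higher and 0 lower. In the Notch list 1 of 7 genes was higher (Dll4, the ligand of sprouting tip cells, 2.95-fold) and 1 lower (Jag2). Of all tested genes 17.8% were higher and 7.95% lower. Dll4 passed the minimum through eye alone. With 1 added to each value, 0 genes of the Notch list were higher and 0 lower. With equal summed values 0 were higher and 2 lower, and with totals without lens genes 1 was higher and 0 lower.

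A further list held other genes used as endothelial markers, some of which, such as Cd36 and Pdpn, other cell types express as well. Of 20 tested, 14 were higher in eye, 0 lower and 6 not called, but 7 of the 14 passed the minimum through eye alone. Of the 13 at the minimum in both libraries 7 were higher, with a median log2 fold of 1.19. Ramp2, part of the adrenomedullin receptor, was at 31.9 in eye and 7.88 in retina, 4.05-fold higher (interval 3.53 to 4.66). Cd36, a fatty acid receptor also found in fat, muscle and platelets, was at 1.33 in eye and 0.00755 in retina, where as few as 1 read was counted. S1pr1, a lipid receptor, had 7.99 RPKM in eye and 9.37 RPKM in retina and was not called. With equal summed values 10 of the 20 were higher and 0 lower.

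**Figure D4:**
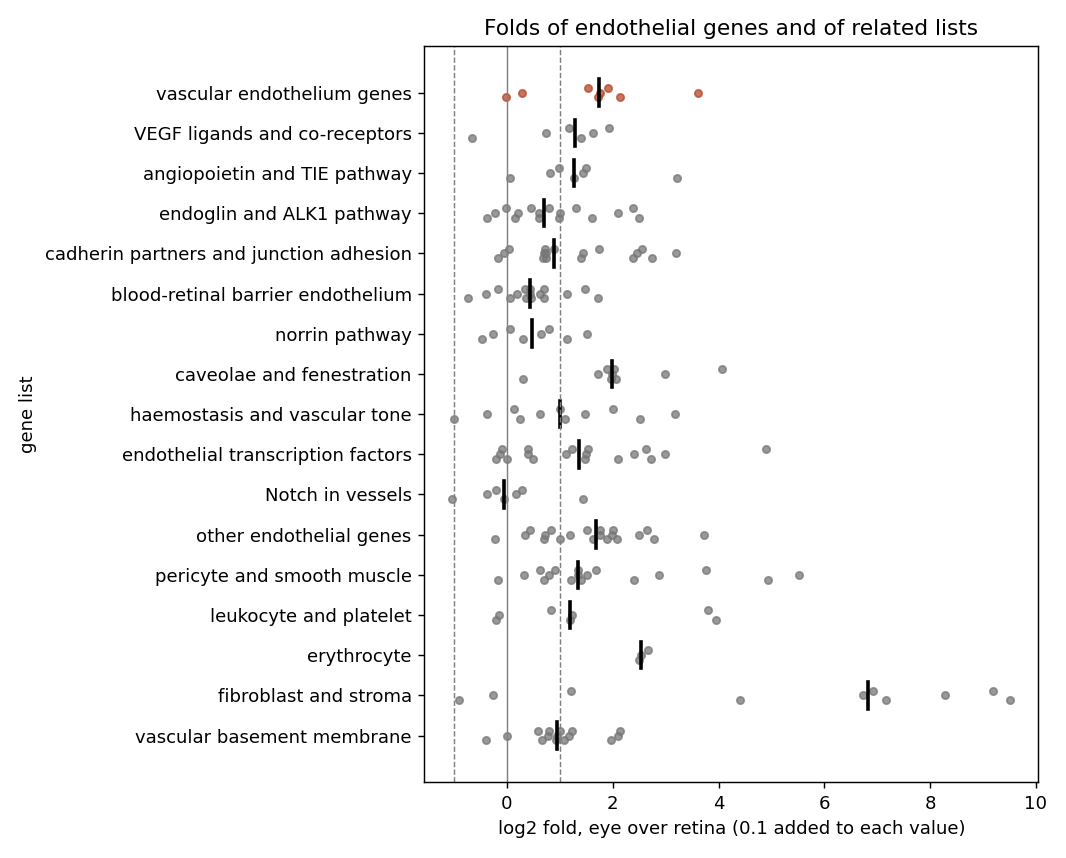
Log2 fold of each tested gene, eye over retina with 0.1 added, for the 8 endothelial genes (top row) and the related lists; black bars are list medians and dashed lines the 2-fold threshold. The endothelial genes have a median of 1.73, caveolae and fenestration genes 1.98 (3 of 9 reached the minimum in eye alone) and barrier endothelium genes 0.44 (1 of 16).

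Summed values of markers of other cells of the vessel wall and of the tissue around it were also higher in eye. Not every marker was higher, and their part in the result was not tested. Pericyte and smooth muscle genes were higher in eye in 11 of 17 cases and lower in 0, with summed values of 327 RPKM in eye and 78.7 RPKM in retina. Pdgfrb, a receptor used as a pericyte marker, was at 12.5 in eye and 4.68 in retina, 2.67-fold higher (interval 2.36 to 3.02). It was not called with equal summed values (log2 fold 0.76). Pdgfb, Rgs4, Abcc9, Kcnj8, Vtn and Higd1b were not called, with folds from 0.883 (Rgs4) to 1.92 (Abcc9). The muscle genes Tagln (115 in eye and 8.37 in retina) and Des (41.0 in eye and 0.790 in retina) were part of the sum. Leukocyte and platelet genes, which bear on Pecam1 and Vwf, were higher in 4 of 7 cases, with sums of 45.2 RPKM in eye and 21.9 RPKM in retina. Of these 4, 3 passed the minimum through eye alone. Csf1r, Coro1a and Itga2b were not called, the last 2 at folds of 0.904 and 0.856. The leukocyte gene Ptprc (CD45) was at 0.980 in eye and 0.156 in retina, below the minimum. All 3 tested erythrocyte genes were higher, with sums of 351 RPKM in eye and 56.0 RPKM in retina. Fibroblast and stroma genes were higher in 8 of 10 cases, with sums of 2199 RPKM in eye and 156 RPKM in retina. Of the retina sum, 114 RPKM came from Thy1 and 30.2 RPKM from Fbln1. These 2 genes were not called, at folds of 0.534 and 0.829, and the cells behind their values were not tested. Of the vascular basement membrane list, 6 of 15 genes were higher and 0 lower, with Col4a1 at 95.6 in eye and 64.0 in retina. After scaling to equal summed values, 6 of 17 pericyte, 2 of 7 leukocyte and platelet and 3 of 3 erythrocyte genes were higher. So were 7 of 10 genes of the stroma list and 3 of 15 of the basement membrane list. With that scaling Thy1 of the stroma list and Itga5 of the basement membrane list were lower. The minimum was reached through eye alone by 3 of 17 pericyte, 3 of 7 leukocyte and platelet, 5 of 10 stroma, 1 of 15 basement membrane and 0 of 3 erythrocyte genes. At the minimum in both libraries, 8 of 14 pericyte, 1 of 3 leukocyte and platelet and 3 of 5 stroma genes were higher. So were 6 of 14 basement membrane and 3 of 3 erythrocyte genes. None of the measured genes of these lists was listed at 0 in either library.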

How the data were processed

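RNA sequencing values of eye and retina of Long Evans rats were analysed, with 1 column per tissue and samples grouped by their titles. The submitters' processing notes name GSNAP, HTSeq and the rat build rn4, without versions, annotation or use of strand, so overlapping genes may share reads. The values deposited by the authors are taken as RPKM, which was inferred from the values. Library totals were found from short genes whose length in the reference table (GRCr8) fitted, and all 13760 genes searched then gave whole reads within the rounding of the decimals, against 0 of 688 genes with a wrong pair of totals. These reads are the smallest that fit, so intervals are if anything too wide for counting error alone. Repeated reads of 1 molecule and spread between preparations or rats are not covered and would widen them. The 8 genes had from 221 to 1227 such reads in eye and from 138 to 1368 in retina.

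Each file held 14533 rows, 7 with ND. The fold was log2((eye + 0.1) / (retina + 0.1)), which understates the change of low genes; folds of named genes are ratios of the values. Intervals are exact 95% intervals (SciPy 1.17.1, Python 3.11.15). The planned count model was not used on these normalized values. The calls and read recovery were tested on simulated data. The 8 genes and the 19 other lists were chosen with earlier results of these data known. All 8 were named. From the other lists the text names direct partners, the most abundant genes, those with the highest or lowest fold, and some chosen after their values were seen. The planned protein comparison was not made, as no protein sequences were used here.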

Additional observations from a re-analysis of the deposited data

How the results depend on the processing

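All 6 calls among the 8 endothelial genes held with 1 or 0.01 added, totals without lens genes, a trimmed mean of log ratios, a median of ratios, recovered reads, no minimum, and without rows of at most 5 decimals. With equal summed values 5 were called (Pecam1 was not), with a minimum of 5 also 5 (Vwf was not tested) and at a fold of 4, 2. The scalings moved the log2 ratio by 0.19 without lens genes, -0.64 with equal summed values, 0.00 with the trimmed mean and 0.01 with the median of ratios. Over all tested genes, 2366 were higher and 1054 lower as reported. The number higher was 1530 with equal summed values, 1471 with a minimum of 5 and 1203 at a fold of 4. The number lower was 655 with 1 added, 558 with totals without lens genes, 4264 with equal summed values and 12 at a fold of 4. These shifts follow from how each setting is built. Called genes were thus mostly higher in eye as reported and mostly lower with equal summed values. No paired analysis was possible because each tissue had 1 column of values, and leaving out a replicate could not be run for the same reason. Genes with few retina reads, such as Cd36, are limited by depth.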
